A study of Mus musculus with 5 samples.

Results

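The genes described here encode the proteins of major histocompatibility complex (MHC) class I of the mouse. They are B2m, the classical heavy chain genes H2-K1 and H2-D1, and the non-classical heavy chain genes H2-Q4, H2-Q6, H2-Q7, H2-T22, H2-T23 and H2-M3. They were chosen by symbol, and all 9 were found among the 32285 genes of the table. Their transcripts were counted in single spleen cells of C57/BL6 mice, taken 48 h after an intravenous infusion. The 5 groups were live allogeneic splenic cells (donor strain Balbc), live isogeneic splenic cells (donor strain B6), apoptotic allogeneic splenic cells (Balbc), apoptotic isogeneic splenic cells (B6), and saline. All recipients were of the same strain, each group had 1 library, and no source used here states how many mice stand behind a library. A spleen suspension made with collagenase D and DNAse I was enriched for CD45+ cells and, apart from that, for dendritic cells (DCs), and the enriched cells were mixed in equal parts. The share of a cell type therefore follows the enrichment and is not compared. Libraries are compared within a cell type, and the order of levels over cell types is given as a description.

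MHC class I molecules sit on the surface of nearly all nucleated cells and show peptides from inside the cell to CD8 T cells. A heavy chain reaches the surface together with beta-2-microglobulin, the invariant light chain encoded by B2m. H2-K1 and H2-D1 encode the heavy chains that present most peptides to CD8 T cells and that differ between strains: C57BL/6 carries haplotype b of the H2 complex and BALB/c haplotype d. The non-classical heavy chains have narrower roles. H2-Q6 and H2-Q7 encode Qa-2, H2-T23 encodes Qa-1, which is read by the CD94/NKG2 receptors of natural killer cells, H2-M3 presents peptides with an N-formyl group, and H2-T22 is bound by a subset of gamma-delta T cells. Interferons raise the transcription of class I genes in many cells, through interferon response elements and factors such as IRF1 and NLRC5.

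On GRCm38 (mm10), B2m (ENSMUSG00000060802) lies at chr2:122147686-122153083 on the plus strand. The heavy chain genes all lie on chromosome 17, within the H2 complex. H2-K1 (ENSMUSG00000061232) spans chr17:33996017-34000347 on the minus strand, and H2-D1 (ENSMUSG00000073411) spans chr17:35262730-35267499 on the plus strand. The Q genes follow on the plus strand, with H2-Q4 (ENSMUSG00000035929) at chr17:35379617-35385290, H2-Q6 (ENSMUSG00000073409) at chr17:35424850-35430055 and H2-Q7 (ENSMUSG00000060550) at chr17:35439155-35443773. H2-T23 (ENSMUSG00000067212) lies at chr17:36029773-36032855 and H2-T22 (ENSMUSG00000056116) at chr17:36037128-36042747, both on the minus strand. H2-M3 (ENSMUSG00000016206) is at chr17:37270220-37274484 on the plus strand.

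The promoter stretches below are shown because several of the genes differed together between libraries. Each is 60 bases from the RefSeq promoter table of GRCm38.p6, upstream of the gene's start and outside annotated exons. It is written along the gene's strand, with the interferon response element match in capitals. The match is GAAANNGAA for B2m and AAGTGAAA, read on the other strand as TTTCACTT, for the heavy chain genes.
B2m, chr2:122147513-122147572, plus strand: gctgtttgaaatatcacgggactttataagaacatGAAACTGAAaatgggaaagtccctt
H2-K1, chr17:34000413-34000472, minus strand: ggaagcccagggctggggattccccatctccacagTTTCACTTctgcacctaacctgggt
H2-Q6, chr17:35424663-35424722, plus strand: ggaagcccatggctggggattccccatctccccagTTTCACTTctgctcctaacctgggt
H2-Q7, chr17:35439007-35439066, plus strand: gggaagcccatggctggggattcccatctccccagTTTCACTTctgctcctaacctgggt
H2-M3, chr17:37270098-37270157, plus strand: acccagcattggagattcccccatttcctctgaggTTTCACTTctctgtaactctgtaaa

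The search covered 250 bases before to 50 bases after the start of each gene, on both strands. AAGTGAAA was present in 7 of the 9 promoters (H2-K1, H2-D1, H2-Q4, H2-Q6, H2-Q7, H2-T22 and H2-M3) and in 1.67% of the 27025 promoters in the table. GAAANNGAA, the core letters of the interferon-stimulated response element, was present in B2m, H2-T22 and H2-T23 and in 8.57% of all promoters. In H2-T22 the matches of both motifs overlapped, starting 190 and 191 bases before the gene. GGGATTCCC, a kappaB site of the class I enhancer, was present in H2-K1, H2-D1, H2-Q6 and H2-Q7 and in 0.370% of all promoters. These motifs were set after the promoters had been read, so their counts describe these promoters only. TGACG, the core of a CREB/ATF site, was present in 7 of 9 and in 21% of all. CCAAT, the letters read by NF-Y, was present in 9 of 9 and in 37.9% of all. These are matches of letters, and no binding was measured.

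**Figure D1:**
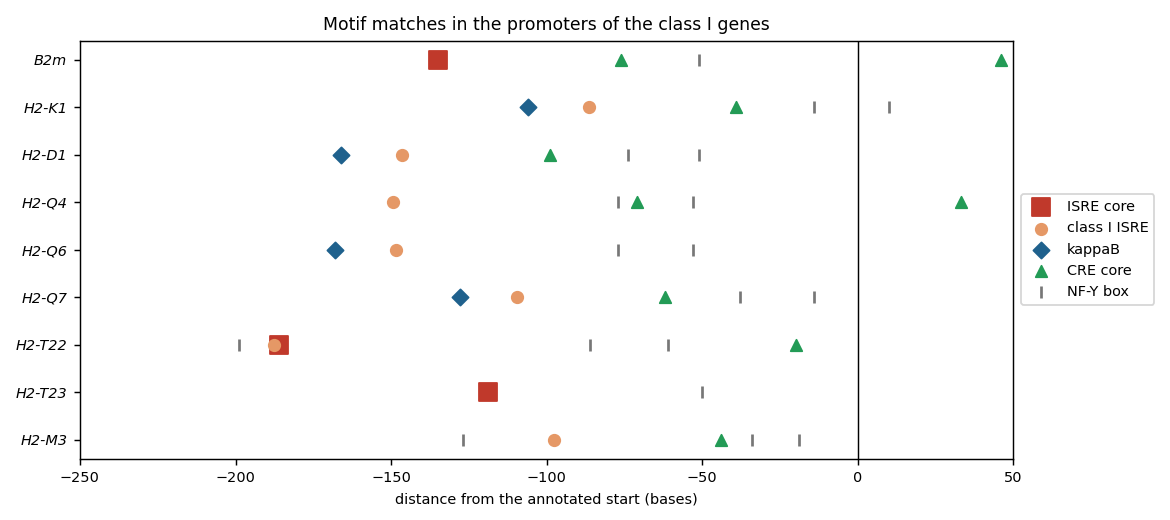
Positions of the searched letters in the promoters of the 9 class I genes (rows) against the distance from the gene's start in bases; symbols mark the motifs. The AAGTGAAA matches of H2-K1, H2-Q7 and H2-M3 began 90, 113 and 101 bases before the start, and those of H2-D1, H2-Q6 and H2-Q4 150, 152 and 153 bases before it.

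Libraries held 12742889 UMIs (live allogeneic), 32641733 (live isogeneic), 16049698 (apoptotic allogeneic), 24206160 (apoptotic isogeneic) and 18125660 (saline). A UMI is a molecular tag that counts 1 captured transcript. A barcode was taken as a cell if it held 1000 or more UMIs, 500 or more genes and no more than 10% of UMIs from mitochondrial genes. That gave 1185, 3680, 2114, 6263 and 2894 cells in the same order, after 1 to 117 doublets per library had been removed. Median UMIs per cell lay between 2267 (apoptotic isogeneic) and 4974 (live allogeneic), and pairs of libraries shared 0 to 8 cell barcodes. Cells were clustered without the 9 genes and called "like" a cell type from markers. The second type of conventional DC, cDC2, was clusters 23 and 13, led by genes such as Ffar2, Ppp1r14a and Clec4a4. A neighbouring cluster of 406 cells led by Cd209a, Wfdc17, Lyz2 and Cx3cr1, which mix cDC2 and monocyte markers, got no cell type name and is called Cd209a-led. A cluster of 197 cells got none either and is called Coch-led: its leading genes mix the stromal genes Coch and Cxcl12 with Pclaf and Nusap1, genes of dividing cells, and the cDC2 gene Ppp1r14a. At a finer clustering 167 of its cells (84.8%) were in a dividing cDC2-like cluster and 30 in a stromal-like one, so the cDC2-like class below leaves out most dividing cDC2-like cells. With 1 library per group no test of a difference is possible. A gene is called higher or lower where the ratio between 2 libraries of its CPM, the UMIs summed over a cell type and scaled to the same total, reached 1.5-fold, and called measured with at least 50 UMIs in the 2 sums. Brackets hold exact 95% intervals, which cover counting error alone and not the spread between mice.

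All 9 genes were found in each of the 10 classes compared in all 5 libraries, which are the named cell types and the Cd209a-led and Coch-led clusters. Their order over these classes differed from gene to gene. Plasmacytoid DC (pDC)-like cells had the highest median level of B2m at 1785 CPM, with 1527 to 3103 CPM over the libraries, and erythroid-like cells the lowest at 454 CPM (356 to 845). For B2m the ranges of all neighbours in this order overlapped. CPM is a share of the class's UMIs, and erythroid-like cells held many UMIs per cell in most libraries. In the saline library their median was 26554.5 UMIs, against 2347 in B cell-like cells. There B2m had 1103 UMIs in 120 erythroid-like cells and 2138 UMIs in 1047 B cell-like cells. The orders in CPM, here and below, are thus not orders of transcripts per cell. H2-K1 was highest in pDC-like cells (median 2428 CPM, 2053 to 3068) and in natural killer (NK)-like cells (2415 CPM, 2379 to 2499). The range of the NK-like cells lay above that of T cell-like cells, which came next at 1520 to 1972 CPM. H2-D1 was highest in NK-like cells (1278 CPM, 1088 to 1757) and pDC-like cells (1184 CPM, 1096 to 2119). B cell-like cells had 579 CPM (539 to 956) and were above erythroid-like cells alone (218 CPM, 179 to 433), and those ranges did not overlap. Classes seen in 4 or fewer libraries stand outside this order, and several had higher medians. Mature DC-like cells had 2691 CPM of B2m, 2947 CPM of H2-K1 and 1566 CPM of H2-D1. Non-classical monocyte-like cells had 2406 CPM of B2m and 1709 CPM of H2-D1, and H2-D1 stood at 1571 CPM in neutrophil-like and 1533 CPM in classical monocyte-like cells.

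The non-classical genes were more uneven, and their order is again given over the 10 classes of all libraries. H2-Q7, a Qa-2 gene, had medians of 955 CPM (698 to 1491) in pDC-like cells, 670 CPM (588 to 830) in NK-like cells and 517 CPM (476 to 533) in T cell-like cells. The cDC2-like cells, at 139.9 CPM (117 to 262), and the cDC1-like cells, at 133 CPM (118 to 249.8), lay well below. The ranges of the pDC-like, NK-like and T cell-like cells all lay above theirs. H2-Q6, the other Qa-2 gene, was highest in NK-like cells at 331 CPM (295 to 373), next in pDC-like cells at 249.6 CPM (218 to 275) and then in B cell-like cells at 157 CPM (137 to 182), and none of these 3 ranges overlapped. Among cell types found in fewer libraries, classical monocyte-like cells had 9.96 CPM of H2-Q6 (2 libraries) and 47.2 CPM of H2-Q7. Others were high: mature DC-like cells (4 libraries) had 320 CPM of H2-Q6 and 576 CPM of H2-Q7. Endothelial-like cells (3 libraries) had 272 CPM of H2-Q6 and 463 CPM of H2-Q7. H2-T23, the Qa-1 gene, was highest in pDC-like cells (324 CPM, 236 to 655) and then in Cd209a-led cells (172 CPM, 151 to 358), and it had no such peak in NK-like cells (105 CPM, 96.7 to 177). H2-Q4 was highest in T cell-like (149.8 CPM, 130 to 201), pDC-like (148 CPM, 121 to 291) and NK-like cells (143 CPM, 122 to 248), with overlapping ranges. Outside the 10 classes, H2-Q4 had a median of 272 CPM both in mature DC-like (4 libraries) and in endothelial-like cells (3 libraries). H2-T22 was highest in NK-like (69.8 CPM, 32.2 to 112) and pDC-like cells (68.7 CPM, 64.1 to 216). H2-M3, whose product presents bacterial N-formyl peptides, was highest in pDC-like cells (62.3 CPM, 27.8 to 108) and lowest in erythroid-like cells (2.80 CPM, 0.322 to 5.47).

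**Figure D2:**
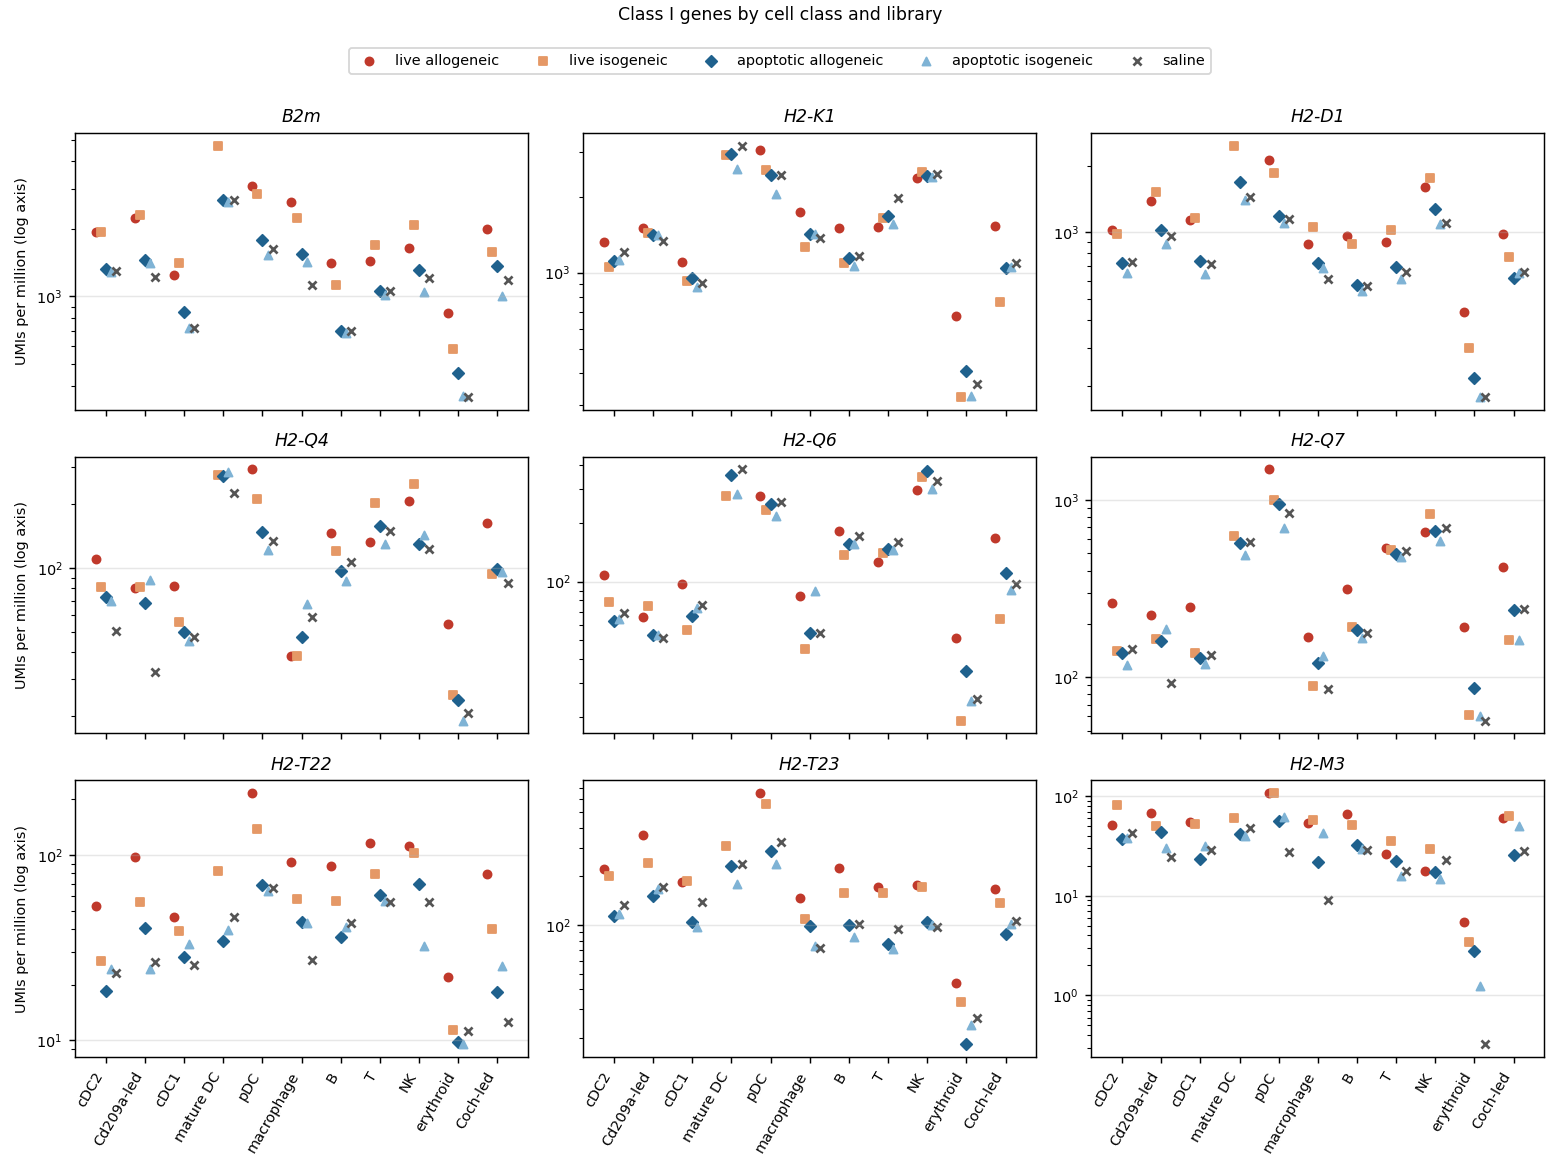
Level of each class I gene (one panel per gene, CPM on a log axis) in the 10 classes found in all 5 libraries and in mature DC-like cells (4 libraries); points are libraries, with 1 library per group. B2m and H2-D1 points of both live cell libraries lie above the others in most classes, while H2-K1 points lie closer together outside erythroid-like and Coch-led cells.

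In cDC2-like cells the first question was whether foreign and self cells had different effects when both were live. The class held 76 cells (602325 UMIs) in the live allogeneic library, 276 in the live isogeneic, 255 in the apoptotic allogeneic, 329 in the apoptotic isogeneic and 338 in the saline library. Of the 9 genes, H2-Q7 and H2-T22 were higher in the live allogeneic than in the live isogeneic library and H2-M3 was lower. Among all 5409 genes measured in this comparison, 8.78% were higher and 12.4% lower. The median log2 fold was 0.33 over the 9 genes and -0.04 over all measured genes.

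H2-Q7 stood at 262 CPM in the live allogeneic library, 139.9 CPM in the live isogeneic, 137 CPM in the apoptotic allogeneic, 117 CPM in the apoptotic isogeneic and 143 CPM in the saline library. The live allogeneic library was the high one, and the other 4 lay close together. Its fold, live allogeneic over live isogeneic, was 1.87 (1.52 to 2.30). H2-T22 had 53.1, 26.8, 18.6, 24.2 and 23.2 CPM in the same order of libraries, again with 1 high library, and a fold of 1.98 (1.22 to 3.18). That fold rests on few UMIs: with 1000 UMIs drawn from every cell, H2-T22 was found in 1.32% of the live allogeneic cells and in 2.54% of the live isogeneic ones, about the level of 1 UMI. The fold was then 0.519, and no direction is read from it. H2-Q7 kept its call there at 2.42 (1.26 to 4.56). H2-Q6 reached 107.9, 78.7, 62.6, 64.1 and 69.0 CPM and H2-Q4 109.6, 81.6, 72.5, 69.6 and 50.6 CPM. Both were highest in the live allogeneic library but stayed under the 1.5-fold rule against the live isogeneic one, at 1.37 (1.00 to 1.86) and 1.34 (0.986 to 1.81). In a finer clustering, and in one without interferon genes, 4 genes were higher, since H2-Q6 (1.79 and 1.72) and H2-Q4 (1.54 in both) passed as well. With 1000 UMIs drawn per cell H2-Q4 was at 0.673 (0.202 to 1.77). That interval and the one of its main fold both hold 1, so no direction is read for H2-Q4.

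B2m did not separate the live libraries. It had 1931 CPM (live allogeneic), 1947 CPM (live isogeneic), 1323 CPM (apoptotic allogeneic), 1289 CPM (apoptotic isogeneic) and 1294 CPM (saline). The fold between the live libraries was 0.992 (0.927 to 1.06), while both lay above the other 3. H2-D1 had the same shape, with 1024, 979, 725, 650.3 and 734 CPM, and a fold of 1.05 (0.952 to 1.15) between the live libraries. H2-T23 had it too, at 221, 200.6, 114, 116 and 133 CPM, with a fold of 1.10 (0.894 to 1.35), but with 1000 UMIs drawn per cell that fold was 1.82 (1.05 to 3.06), past the rule. H2-K1 was flatter, at 1319.9, 1049, 1110.2, 1126 and 1209 CPM, and its fold of 1.26 (1.16 to 1.37) between the live libraries came with the lowest of the 5 levels in the live isogeneic one. H2-M3 had its highest level in the live isogeneic library, at 51.5, 82.2, 37.2, 38.3 and 42.8 CPM, and a fold of 0.626 (0.410 to 0.929).

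Set against saline, the live allogeneic library had 5 higher genes in cDC2-like cells, where 8.26% of 5313 measured genes were higher and 12.8% lower. They were H2-T22 at 2.29 (1.39 to 3.75), which turned to 0.318 with 1000 UMIs drawn per cell, H2-Q4 at 2.17 (1.55 to 3.02), H2-Q7 at 1.83 (1.49 to 2.25), H2-T23 at 1.66 (1.33 to 2.06) and H2-Q6 at 1.56 (1.14 to 2.14). B2m lay just under the rule at 1.49 (1.39 to 1.60), followed by H2-D1 at 1.40, H2-M3 at 1.20 and H2-K1 at 1.09. The median log2 fold was 0.65 over the 9 genes against -0.04 over all genes. In the live isogeneic library 4 genes were higher than in saline, with 8.12% of 6517 genes higher and 6.32% lower. H2-M3 at 1.92 (1.43 to 2.59) and H2-Q4 at 1.61 (1.22 to 2.14) were clear of the rule, and H2-T23 at 1.51 (1.27 to 1.79) and B2m at 1.504 (1.42 to 1.59) only just passed. H2-Q7 had 0.976 (0.813 to 1.17) and H2-K1 0.868 (0.814 to 0.925), and the median log2 fold over the 9 genes was 0.42. These comparisons share the saline library. The live libraries therefore both had more B2m and H2-T23 than saline, and the Qa-2 gene H2-Q7 was higher in the live allogeneic one. With 1000 UMIs drawn per cell the counts against saline were 3 (live allogeneic) and 2 (live isogeneic).

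After apoptotic cells none of the 9 genes was higher or lower in cDC2-like cells, allogeneic over isogeneic. Their folds ran from 0.767 for H2-T22 to 1.17 for H2-Q7, with 4.3% of 5844 genes higher and 2.84% lower. Against saline none passed the rule either. The folds ran from 0.801 (H2-T22) to 1.43 (H2-Q4, interval 1.07 to 1.92) in the apoptotic allogeneic library, with 2.65% of 6332 genes higher and 5.27% lower. They ran from 0.818 (H2-Q7) to 1.38 (H2-Q4, interval 1.01 to 1.87) in the apoptotic isogeneic library, with 1.96% of 6026 genes higher and 5.87% lower.

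**Figure D3:**
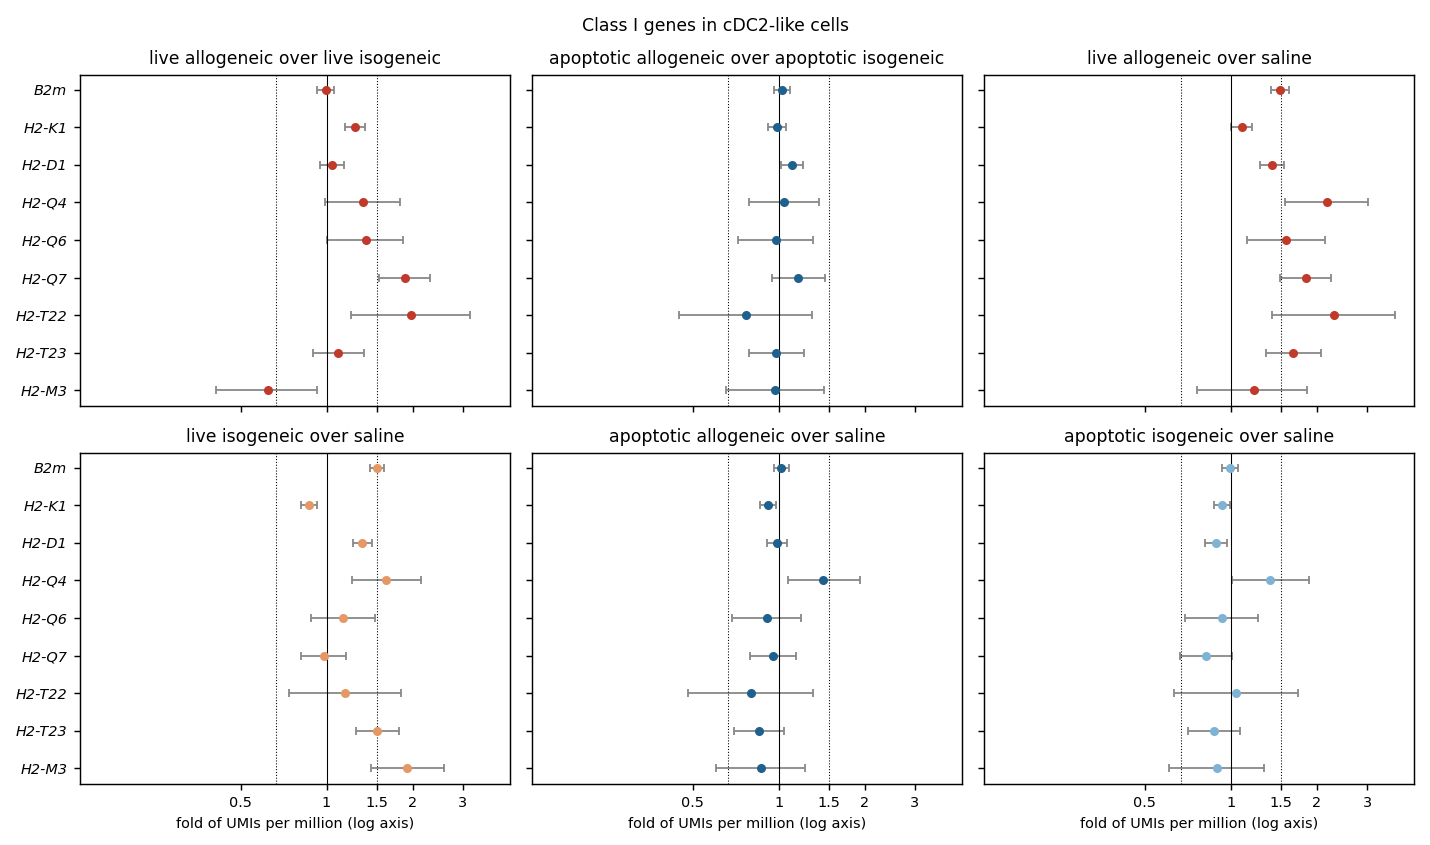
Folds of the 9 class I genes in cDC2-like cells (log axis) for the allogeneic to isogeneic pairs and for each live and each apoptotic library over saline; bars are exact 95% counting intervals and dotted lines mark the 1.5-fold rule. In the live pair H2-Q7 and H2-T22 lie above the rule and H2-M3 below 1, and in the apoptotic pair all 9 lie between 0.767 and 1.17.

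Among B cell-like cells, all 9 genes had more CPM in the live allogeneic than in the live isogeneic library, with folds from 1.08 to 1.65, although the median log2 fold of all 8405 measured genes was -0.23. H2-Q7, at 316 CPM in the live allogeneic and 192 CPM in the live isogeneic library, had a fold of 1.65, and H2-T22, at 87.6 and 56.8 CPM, one of 1.54. These 2 were the genes called higher, where 4.02% of all genes were higher and 19% lower. With size factors from the median of gene ratios, which remove that shift, 6 of the 9 passed the rule. The share of all genes past the rule was not computed for that scaling, so this count has nothing to be set against. A cluster led by interferon response genes (Ifit3, Ifi208 and Ifi213 among them) held 39.3% of the B cell-like cells of the live allogeneic library and 2.42% to 2.98% in each of the others. Without it 1 gene, H2-Q7 at 1.56, was higher and all 9 folds were still above 1, with a median log2 fold of 0.27 in place of 0.41. The other cells were also spread unevenly: 55.2% of the live isogeneic B cell-like cells were in cluster 7, and 37.1% of the saline ones in cluster 5. The part of this make-up in the result was not tested further.

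Against saline, 6 genes were higher in B cell-like cells of the live allogeneic library (4.4% of 7588 genes higher, 17.7% lower) and 4 in those of the live isogeneic library (6.87% of 8603 higher, 4.42% lower). B2m had 1415, 1126, 704, 686 and 698 CPM in the live allogeneic, live isogeneic, apoptotic allogeneic, apoptotic isogeneic and saline libraries, and H2-T23 had 225, 157, 99.6, 84.8 and 100.6 CPM. In both genes the live libraries lay apart from the other 3, which were close together. H2-T23 was also present in more single cells. At 1000 UMIs drawn from each B cell-like cell, a UMI of it was found in 24.2% (20.6 to 28.2) of the live allogeneic, 14.9% of live isogeneic, 8.40% of apoptotic allogeneic, 8.58% of apoptotic isogeneic and 9.46% of saline cells. Unthinned shares were 62.8%, 41.1%, 29.1%, 17.3% and 23.9%, at median depths of 3912.5, 3060, 2993, 1787 and 2347 UMIs. In erythroid-like cells, where the CPM of H2-T23 was low, the thinned shares were 3.28%, 2.27%, 0% (0 of 137 cells, which allows up to 2.19%), 4.20% and 3.33%.

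T cell-like cells gave other values. No gene was higher and H2-Q4 was lower at 0.660 (133 CPM live allogeneic, 201 CPM live isogeneic), where 17.4% of 6975 genes were higher and 22.8% lower, and the median log2 fold of all genes was -0.11. Of the 9 genes, 6 had folds under 1, with B2m at 0.852 and H2-K1 at 0.921. Cluster 21, led by T cell receptor chains, Xcl1, Gzmc and the cell division gene Pclaf, held 12.5% of the live allogeneic T cell-like cells and 0.747% to 1.84% of the others. Without it H2-T22 was higher at 1.99 and H2-Q4, at 0.881, was no longer called. B2m had 1.05 and H2-K1 1.16, so that the directions of B2m and H2-K1 rest on 1 cluster of 45 cells. Against saline the live allogeneic T cell-like cells had 2 higher genes, H2-T22 at 2.07 and H2-T23 at 1.82 (17.2% of 5636 genes higher, 18.4% lower), and without cluster 21 they had 5, which were B2m at 1.72, H2-D1 at 1.58 and H2-M3 at 2.02 in addition. The shares of all genes given for T cell-like cells include cluster 21, and none was computed without it. In the live isogeneic T cell-like cells B2m was at 1.60, H2-D1 at 1.55, H2-T23 at 1.67 and H2-M3 at 1.99 over saline, which are the 4 genes above the rule (8.36% of 6749 genes higher, 6.1% lower). NK-like cells, whose receptors read class I molecules, had folds of 0.788 for B2m and 0.952 for H2-K1 between the live libraries. No NK-like fold in that pair passed the rule, where 9.74% of 2064 genes were higher and 16.1% lower.

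The H2-Q7 difference of cDC2-like cells was seen again in cDC1-like cells, where H2-Q6 passed too. In pDC-like and Cd209a-led cells no Qa-2 gene passed the rule. In cDC1-like cells H2-Q7 (249.8 and 138 CPM, fold 1.82) and H2-Q6 (97.3 and 56.4 CPM, fold 1.72) were higher in the live allogeneic than in the live isogeneic library, with 7.65% of 6525 genes higher and 6.7% lower. Cluster 26 alone, which held 43.8% and 45.4% of these cells, gave 1.70 and 1.61. In saline the cDC1-like cells had 133 CPM of H2-Q7 and 75.8 CPM of H2-Q6, so the live isogeneic level of H2-Q6 was below saline. In pDC-like cells H2-T22 was called at 1.56 (216 and 139 CPM), while H2-Q7 had 1.48 (1491 and 1005 CPM) and H2-Q6 1.17 (275 and 235 CPM), with 7.85% of 3554 genes higher and 12.3% lower. In Cd209a-led cells H2-T22 was called at 1.75 (97.4 and 55.5 CPM), H2-Q7 had 1.37 (224 and 164 CPM) and H2-Q6 0.883 (66.1 and 74.8 CPM), with 16.4% of 3694 genes higher and 11.3% lower. Against saline, pDC-like cells of the live allogeneic library had 7 higher genes of 9 (7.87% of 3290 genes higher, 12.3% lower) and those of the live isogeneic library 6 (7.25% of 4371 higher, 7.3% lower). H2-T23 stood at 655, 558, 285, 236 and 324 CPM in pDC-like cells and H2-D1 at 2119, 1856, 1184, 1096 and 1146 CPM, both highest in the live libraries.

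The largest live allogeneic to live isogeneic folds were in erythroid-like and Coch-led cells. In erythroid-like cells H2-Q7 had 191 and 61.1 CPM (fold 3.13), H2-Q6 51.5 and 19.2 CPM (2.68), H2-Q4 a fold of 2.15, H2-K1 676 and 321 CPM (2.10) and H2-T22 a fold of 1.92, and 2.53% of 8336 genes were higher and 10.1% lower. The live isogeneic erythroid-like cells were of another make-up, with 57.2% of them in the shallow cluster 24 against 8.33% to 19.7% in the other libraries. These are shares of cells, while the folds use summed UMIs. The median was 2078.5 UMIs per cell in cluster 24 and 34186 in cluster 11, which held the rest of the class. The share of UMIs from cluster 24 was not computed, and its part in the folds was not tested. Coch-led cells, mostly the dividing cDC2-like cells described above (31 live allogeneic cells and 66 live isogeneic ones), had folds of 2.60 for H2-Q6, 2.58 for H2-Q7, 2.00 for H2-K1, 1.99 for H2-T22 and 1.74 for H2-Q4, with 10.7% of 3545 genes higher and 11.2% lower. In these cells the live isogeneic level of H2-K1, 762 CPM, was below that of saline, 1095 CPM. H2-Q7, at 162 CPM against 244 CPM in saline, and H2-Q6, at 0.664 times saline, were called lower there. Both were also called higher in the live allogeneic library than in saline, where the largest class I fold was 1.93. The folds of H2-Q6 and H2-Q7 between the live libraries thus hold a low live isogeneic level as well.

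Over the 10 classes found in all libraries, the genes followed several patterns. H2-T22 was above 1 in 9 of 9 classes where it was measured in the live pair and past the rule in 6. These counts include its cDC2-like fold, from which no direction is read. H2-Q7 was above 1 in 8 of 9 and past the rule in 5. In the same pair B2m, H2-D1 and H2-T23 passed the rule in none of their 10, 10 and 9 classes. Of all measured combinations of gene and class in that pair, 8.83% were higher and 13.8% lower. Over saline, 9.37% of combinations were higher and 12.6% lower for live allogeneic cells, and 8.27% and 6.51% for live isogeneic cells. B2m passed in 7 of 10 classes for live allogeneic cells (1.36 to 2.38) and in 9 of 10 for live isogeneic cells (1.32 to 2.00). H2-M3 passed in 4 of 6 and 7 of 7, and H2-T23 in 8 of 9 and 5 of 9. H2-D1 passed in 4 of 10 and 8 of 10, the live isogeneic folds being 1.16 to 1.71. H2-Q7 differed most between these counts, with 7 of 9 classes for live allogeneic and 1 of 9 for live isogeneic cells, where it was also lower in 1. H2-Q6 passed in 3 of 9 for live allogeneic cells. For live isogeneic cells H2-Q6 was higher in 0 and lower in 1 of 9, with folds from 0.664 to 1.46. H2-K1 passed in 1 of 10 for live allogeneic cells and in none for live isogeneic ones, whose folds ran from 0.696 to 1.07. For apoptotic cells, allogeneic over isogeneic, no measured class I gene passed the rule in any of the 10 classes, where 3.99% of combinations were higher and 3.91% lower. Over saline the apoptotic allogeneic library had H2-Q4 past the rule in 1 of 9 and H2-Q7 in 2 of 10, where 3.26% of combinations were higher and 5.25% lower. The apoptotic isogeneic library had H2-Q4 higher in 1 of 8, H2-Q7 higher in 2 and lower in 1 of 10, and H2-M3 higher in 1 of 5, where 3.1% were higher and 5.55% lower.

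**Figure D4:**
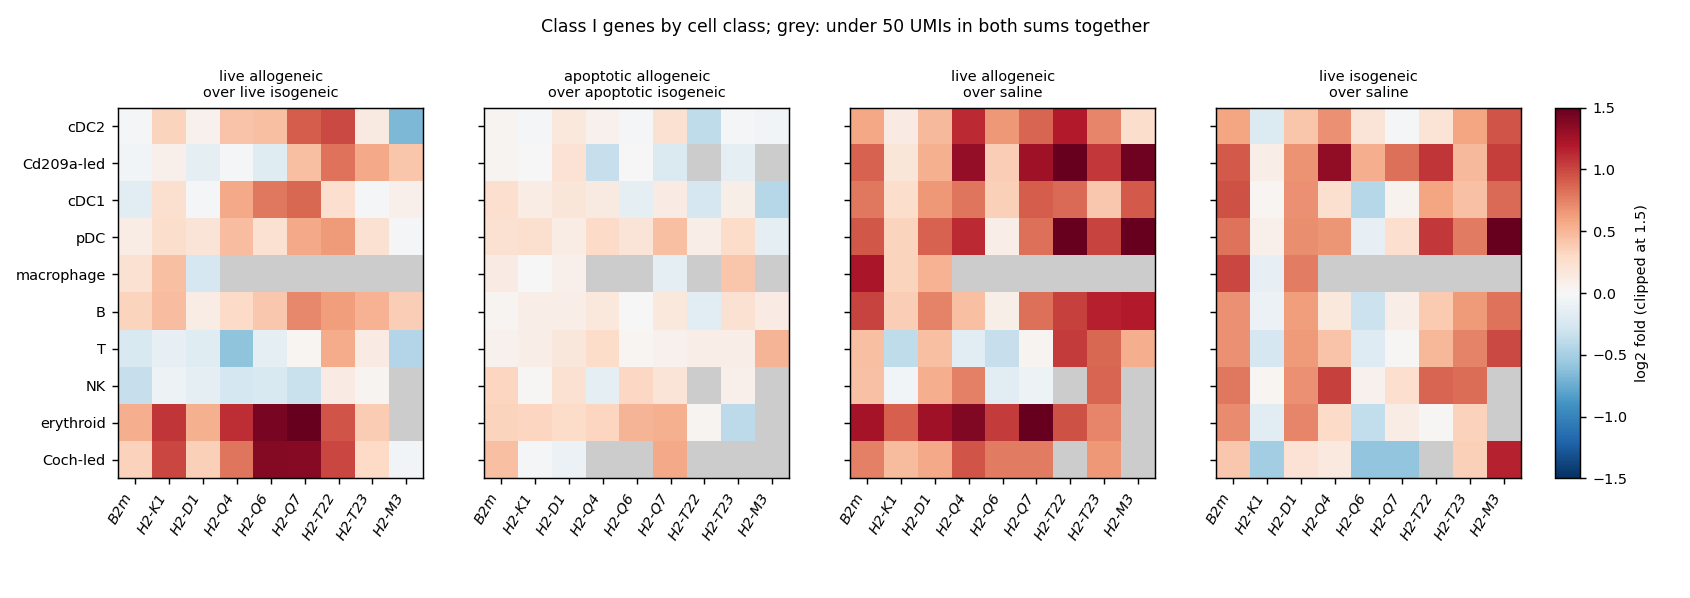
Log2 folds of the 9 class I genes (columns) in the 10 classes found in all libraries (rows) for 4 pairs of libraries; red is higher in the first-named library and grey marks genes with under 50 UMIs in both sums together. The apoptotic pair is pale throughout, H2-Q7 and H2-T22 are red in most rows of the live pair, and H2-K1 is pale or blue for live isogeneic over saline.

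Barcodes with under 100 UMIs, which hold free RNA and few or no cells, showed part of the same difference between libraries. They were present in 4 of the 5 files and not in that of the apoptotic allogeneic library. B2m reached 1199 CPM in such barcodes of the live allogeneic library, 1508 CPM in those of the live isogeneic, 789.6 CPM in the apoptotic isogeneic and 826 CPM in the saline library. The folds over saline were 1.45 (live allogeneic), 1.83 (live isogeneic) and 0.956 (apoptotic isogeneic). H2-D1 had 1.42, 1.57 and 1.00, H2-T22 2.04, 1.79 and 1.16, and H2-M3 2.37, 2.38 and 1.47. H2-Q7 had 1.64, 1.27 and 1.22 and H2-T23 1.58, 1.43 and 0.820, while H2-K1 was flat at 1.15, 1.11 and 1.14. Q gene values did not all follow the cells: H2-Q6 was at 1.49, 1.06 and 1.70, and H2-Q4 at 1.11, 1.31 and 0.941. No share or median fold over all genes was computed for these barcodes, so a general shift of their RNA cannot be told from one of the class I genes. The part of free RNA in the folds of the cell types was not tested.

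**Figure D5:**
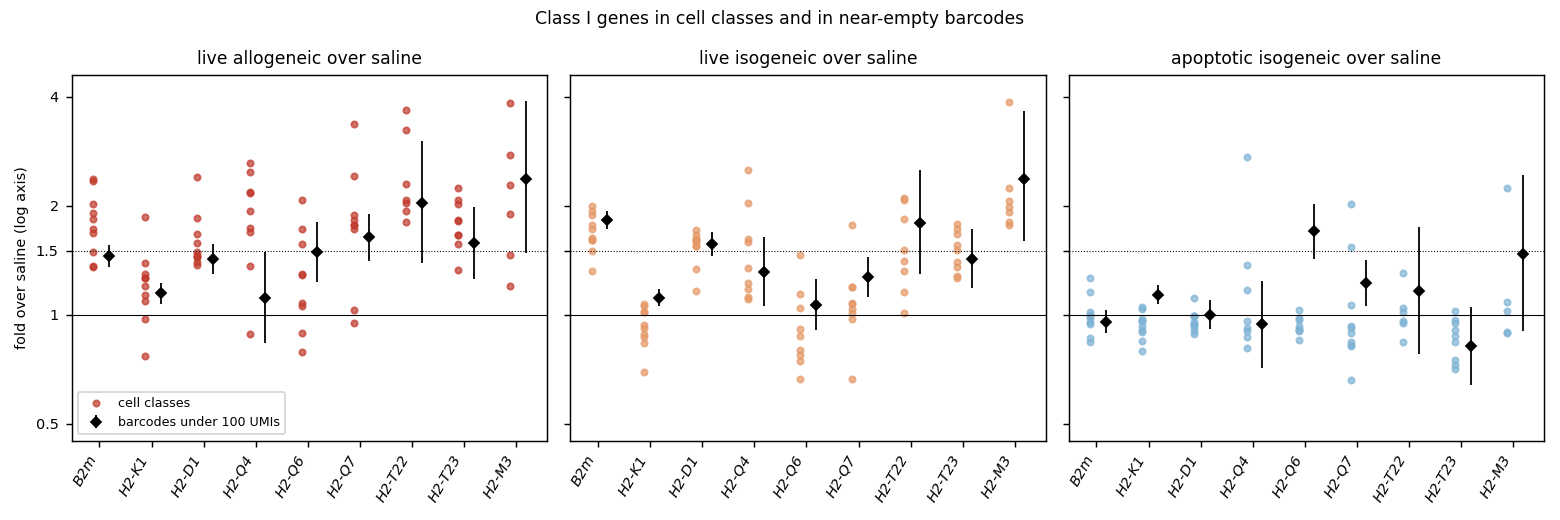
Folds over saline (log axis) of the 9 class I genes in classes of cells (circles, 1 per class found in all libraries) and in barcodes under 100 UMIs (diamonds with exact 95% counting intervals). Diamonds lie above 1 for all 9 genes in both live libraries, with intervals that reach below 1 for H2-Q4 (live allogeneic) and H2-Q6 (live isogeneic). Folds of all genes were not computed for these barcodes.

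Other genes of the pathway were read from lists. Of 15 genes for peptide cutting, transport and loading, 7 were higher and 1 lower in cDC2-like cells, live allogeneic over live isogeneic, against 8.78% and 12.4% of all measured genes. The list's median log2 fold was 0.45, against -0.04 over all genes. Immunoproteasome subunits, which cut proteins into class I peptides, stood out: Psmb8 had 702 and 427 CPM (fold 1.65, 1.46 to 1.86) and Psmb9 478 and 249.5 CPM (1.92, 1.64 to 2.23). The proteasome activators Psme1 and Psme2 had folds of 1.53 (1.37 to 1.71) and 1.75 (1.501 to 2.03). Psmb10 was at 1.92, the peptide transporter gene Tap1 at 1.54 and the peptide editor gene Tapbpl at 1.59, while the chaperone calnexin, Canx, was at 0.525. Among the regulators of class I transcription, Stat2, a factor of type I interferon signalling, was higher at 1.77 (1.28 to 2.42), and Rfx5, a promoter-binding factor, was lower at 0.551 (0.270 to 1.03). Nlrc5, the class I transactivator, had too few UMIs there. None of 4 class I receptors measured passed, and of 3 other class I-like genes Fcgrt was lower at 0.653.

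Over saline the loading list had 5 higher and 0 lower genes in live allogeneic cDC2-like cells, where 8.26% of all genes were higher and 12.8% lower. Psmb9 was at 2.40, Psme2 at 1.98, Psmb8 at 1.56 and Psmb10 at 1.52, and Tap2 was also past the rule at 1.65 (0.975 to 2.74). Of the regulators, Rfxap was at 1.55, Rela at 0.617 and Rfx5 at 0.472 there. The live isogeneic cDC2-like cells had 2 higher and 1 lower loading genes over saline (8.12% and 6.32% of all genes), which were Tap2 at 2.12, Canx at 1.58 and Tap1 at 0.666. Of the regulators Nfya was higher at 2.10 and Nfyc lower at 0.521 there. After apoptotic cells no loading gene was higher or lower in cDC2-like cells, allogeneic over isogeneic, among 15 measured.

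B cell-like cells had 6 higher and 0 lower loading genes of 15 between the live libraries, where 4.02% of all genes were higher and 19% lower. The cluster led by interferon response genes held 39.3% of the live allogeneic and 2.42% of the live isogeneic cells of this class, and its part in these counts was not tested. The folds included Psmb9 at 2.14, Psme1 at 2.08, Psme2 at 1.75 and Psmb8 at 1.61. Of the regulators, Stat2 was at 2.13, Irf1 at 2.06 (123 and 59.7 CPM) and Nlrc5 at 2.22 (54.4 and 24.5 CPM). Creb1 at 0.640 and Nfya at 0.496 were lower. The same Nlrc5 fold for live isogeneic cells over saline was 1.01 (0.757 to 1.36).

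The genes whose levels over cell types and libraries were most like the mean of the 9 were Clec2d (r = 0.78), Tapbp (0.77), Lncpint (0.76), Tapbpl (0.74) and Nlrc5 (0.71). Clec2d encodes a ligand of an NK cell receptor, and Tapbp encodes tapasin, which ties class I molecules to the peptide transporter. These are Pearson correlations of log2(CPM + 10) over 67 pairs of cell type and library, among 6246 genes with a mean of at least 20 CPM. Points of 1 library share its depth and treatment, and the values are a description. Among the 9 genes themselves, H2-Q6 and H2-Q7 were most alike (0.87), followed by H2-Q4 with H2-Q6 (0.85), H2-Q4 with H2-Q7 (0.85) and B2m with H2-D1 (0.83). H2-Q6 and H2-T23 were least alike (0.31).

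Reads from the 3' end of these genes cannot always be placed. Of the 50-base windows in the last 500 bases of the longest coding transcript, none in B2m or H2-M3 and 0.443% in H2-K1 were also in transcripts of another gene. H2-Q7 shared 6.21% with the class I genes H2-Q5, which is not among the counted genes, and H2-Q10, and H2-T22 shared 59.2% with H2-T10, which is not counted either. The other genes shared windows with many genes, most of those listed being outside class I: H2-D1 9.53% with 80 genes, H2-Q4 33.7% with 55, H2-Q6 35.9% with 17, H2-Q4 among them, and H2-T23 38.1% with 83. The sources used here do not say how reads fitting more than 1 gene were treated. The values of H2-Q4, H2-Q6, H2-T22 and H2-T23 are thus uncertain as to the gene they belong to.

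Strain matters as well. The counts carry 1 row per gene and no alleles, and the reference genome is that of C57BL/6. RNA of infused Balbc cells and of the recipient's own cells cannot be told apart here, nor can poor matching of Balbc reads to H2-K1 or H2-D1 be seen directly. H2-Ea, a class II gene that C57BL/6 does not express and BALB/c does, was not among the rows. Cells with much B2m and no classical heavy chain were looked for, since reads of a foreign heavy chain could be lost. Of cells with at least 10 B2m UMIs, those with neither an H2-K1 nor an H2-D1 UMI numbered 0 of 549 in the live allogeneic library (which allows up to 0.546%), 1 of 1168 in the live isogeneic (0.0856%), 0 of 547 in the apoptotic allogeneic (up to 0.548%), 0 of 281 in the apoptotic isogeneic (up to 1.07%) and 0 of 427 in the saline library (up to 0.703%). No library thus had an excess of such cells detectable at this depth.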

How the data were processed

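The 9 genes were measured in 5 single cell 3' v3.1 libraries (10x Genomics), 1 per group. The deposited matrices hold raw UMI counts of genes in barcodes. Per the submitters' processing notes, Cell Ranger 4.0 and mm10 were used. Files of 4 libraries listed 6794880 barcodes each and that of the apoptotic allogeneic library 2491. Doublets were removed with Scrublet in scanpy 1.11.5 at an expected rate of 0.8% per 1000 cells. It removed 0.0843% to 1.83% of cells per library, so doublets remained.

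Cells were clustered on 2000 variable genes without the 9 genes, with 30 principal components, 15 neighbours and Leiden resolution 1 (igraph 0.11.9), which gave the clusters numbered in the text. A name needed at least 3 markers and 25% of a class's markers, with no leading genes against it. Names were rebuilt here and may differ from the study's own. UMIs were summed per class and library, scaled to CPM and compared as ratios with no pseudocount, where a class had at least 30 cells and 50000 UMIs. Ratios have exact conditional Poisson intervals and shares exact Clopper-Pearson intervals (scipy 1.17.1). The bounds given as allowed for shares of 0 are instead 3 divided by the number of cells, which is below the exact limit. For the 549 live allogeneic cells with at least 10 B2m UMIs that limit was 0.670%. PCR copies are removed by UMIs, and intervals cover counting error only. The scripts were tested on simulated data. All 9 genes are named in every main comparison. From each other list 4 genes past 1.5-fold, those with the highest UMI counts, were to be named, and others named were chosen after their values were seen. The members and lists were chosen with earlier results of these data known, so no count is independent evidence. Gene positions come from GENCODE M21 on GRCm38, and promoters from RefSeq (GRCm38.p6), where 9 of 9 genes matched. Alternatives were another scaling, thinning to 1000 UMIs, a stricter cell filter, doublets kept, other clusterings, another threshold and classes without single clusters. H2-T9, H2-T10, H2-Bl and Cd1d2 of the class I-like list were not among the counted genes. Part of the list of regulators is not reported here, so no counts over that list are given.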

Additional observations from a re-analysis of the deposited data

Results flagged for a closer look

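Some genes lay on opposite sides of 1 for live and for apoptotic cells, allogeneic over isogeneic, with counting intervals that excluded 1 in both. The difference between the 2 ratios was not tested, since each group had 1 library. In Cd209a-led cells H2-D1 had 0.906 for live and 1.16 for apoptotic cells. In T cell-like cells H2-K1 had 0.921 and 1.07, H2-D1 0.885 and 1.13, and H2-Q4 0.660 and 1.21, in the same order. B2m had 0.890 and 1.19 in cDC1-like cells and 0.788 and 1.254 in NK-like cells. Cluster 21 held 12.5% of the live allogeneic T cell-like cells, and without it H2-K1 had 1.16 and H2-D1 1.02 for live cells.

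Barcodes under 100 UMIs, which no comparison of cell types used, had more RNA of some class I genes than those of saline. In the live allogeneic library H2-M3 was at 2.37 times saline, H2-T22 at 2.04, H2-Q7 at 1.64 and H2-T23 at 1.58. In the live isogeneic library H2-M3 was at 2.38, B2m at 1.83, H2-T22 at 1.79 and H2-D1 at 1.57. In the apoptotic isogeneic library H2-Q6 was at 1.70. The share of all genes past the rule was not computed for these barcodes, so these values have nothing to be set against.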

How the results depend on the processing

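No paired analysis was possible because each group had 1 library, and leaving out a library would have removed its group. The number of genes called higher in cDC2-like cells, live allogeneic over live isogeneic, was 2, and it was 4 at Leiden resolution 2, 4 when interferon genes were left out of the clustering and 5 at a lower fold threshold. For live allogeneic over saline it was 5, and 3 with thinned cells. For live isogeneic over saline it was 4, and 2 with thinned cells and 2 at resolution 2. For apoptotic allogeneic over saline it was 0, and 1 with median-ratio size factors and 1 at the lower threshold, and for apoptotic isogeneic over saline 0, and 1 at the lower threshold. The causes were not tested. Shares of all genes past the rule were computed only for the main scaling, cells and clusters, so counts under other settings have no such share beside them.

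Thinning left few UMIs. Of all folds past the rule, 59 of the 80 that were still computed kept their call, and 110 folds were not given because a sum was 0 or both were at most 3. Reversed when thinned were H2-T22 in cDC2-like cells, at 0.519 over live isogeneic and 0.318 over saline, and, live allogeneic over saline, H2-T22 (0.667) and H2-M3 (0.667) in cDC1-like cells and H2-Q6 (0.492) and H2-T23 (0.984) in erythroid-like cells. Calls kept elsewhere numbered 113 of 116 with median-ratio size factors, 113 of 116 with totals without mitochondrial, ribosomal, haemoglobin and immunoglobulin genes, 89 of 93 with the stricter cell filter, 104 of 107 with doublets kept, 84 of 89 at resolution 2 and 98 of 102 without interferon genes. Alternatives chosen after seeing the data kept 12 of 12 (no cluster 13), 11 of 12 (no cluster 4), 6 of 7 (no cluster 21), 10 of 12 (cluster 26 alone) and 3 of 3 (Coch-led cells of the finer cDC2-like cluster, where 27 live allogeneic cells were too few for a fold).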
